A study of Ovis aries with 2 samples.

Results

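Secreted proteins that dampen or strengthen WNT signal, and one of their receptors, were followed through the cells of sheep lambskin. Of the 18161 genes in the deposited table, 4 were taken by name: the inhibitors SFRP1 and WIF1, the ligand RSPO3 and the receptor LGR5. Each was read in all 14037 cells of both libraries. WNT ligands act through Frizzled receptors, and the signal ends in β-catenin entering the nucleus. SFRP1, a secreted relative of Frizzled, and WIF1 bind WNT ligands outside the cell and hold them back. RSPO3, an R-spondin, binds receptors of the LGR family, which protects Frizzled from removal by the ligases RNF43 and ZNRF3 and makes a cell more responsive to WNT. LGR5 is one of these receptors, and it is also used as a marker of stem cells in the hair follicle. The dermal papilla is a knot of dermal cells at the base of the follicle that exchanges such signals with the epithelium around it.

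The skin came from Hu sheep lambs at day 3, from the body side. The groups were straight wool and curly wool (waved in the label), with no treatment in either and lambs from the same breeding farm. Skins of 3 lambs per wool type were pooled by the study's methods, dissociated both as isolated follicles and as whole skin, and mixed into 1 library per wool type. There was therefore no spread between lambs to compare with, no test was possible, and every interval given is a 95% interval for counting error only. The wool type, the pool of lambs and the library cannot be told apart.

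The straight library held 6452 cells with 57956122 UMIs and the curly library 7585 cells with 77634565 UMIs, where a UMI marks 1 captured RNA molecule. Median depth was 7373.5 and 7495 UMIs per cell. The libraries had 70 cell barcodes in common. Levels are given as UMIs of a gene per 1000000 UMIs of the same cells and library (CPM). Over whole libraries SFRP1 was at 177 in straight and 114 CPM in curly cells. WIF1 was at 240.1 and 33.1 CPM, RSPO3 at 179 and 47.2 CPM, and LGR5 at 13.1 and 18.8 CPM. The first 3 genes were lower and LGR5 higher in the curly library. In such sums fewer cells of a type and less RNA per cell cannot be told apart, so each cell group was read by itself.

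Cells were clustered on variable genes after the 4 genes had been removed from them, so that their levels did not shape the groups. This gave 21 clusters, and 30 in a finer clustering. The 1285 straight and 712 curly cells of the dermal papilla-like (DPC-like) cluster carried IGFBP3 at 5427 and 6922 CPM, and all 7 fixed markers of the class were detected, though CORIN was found in only 2.65% and 2.25% of cells. The 214 straight and 526 curly cells of the hair follicle stem cell-like (HFSC-like) cluster carried KRT15, a keratin of the stem cell region, at 13064 and 8587 CPM and SOX9, a stem cell transcription factor, at 509 and 291 CPM. Its marker score was 1.54 against a limit of 1.5, so this name lies near the limit. Integration of the libraries decided which cells were set side by side. Without it, 96.5% of the straight DPC-like cells lay in one cluster and 95.9% of the curly ones in another, the latter led by COL1A1, COL3A1 and CRABP1. Likewise 99.5% of the straight HFSC-like cells lay in a cluster led by PTHLH and SFTPC, and 99.0% of the curly ones in a cluster led by LCN2 and KRT19.

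**Figure D1:**
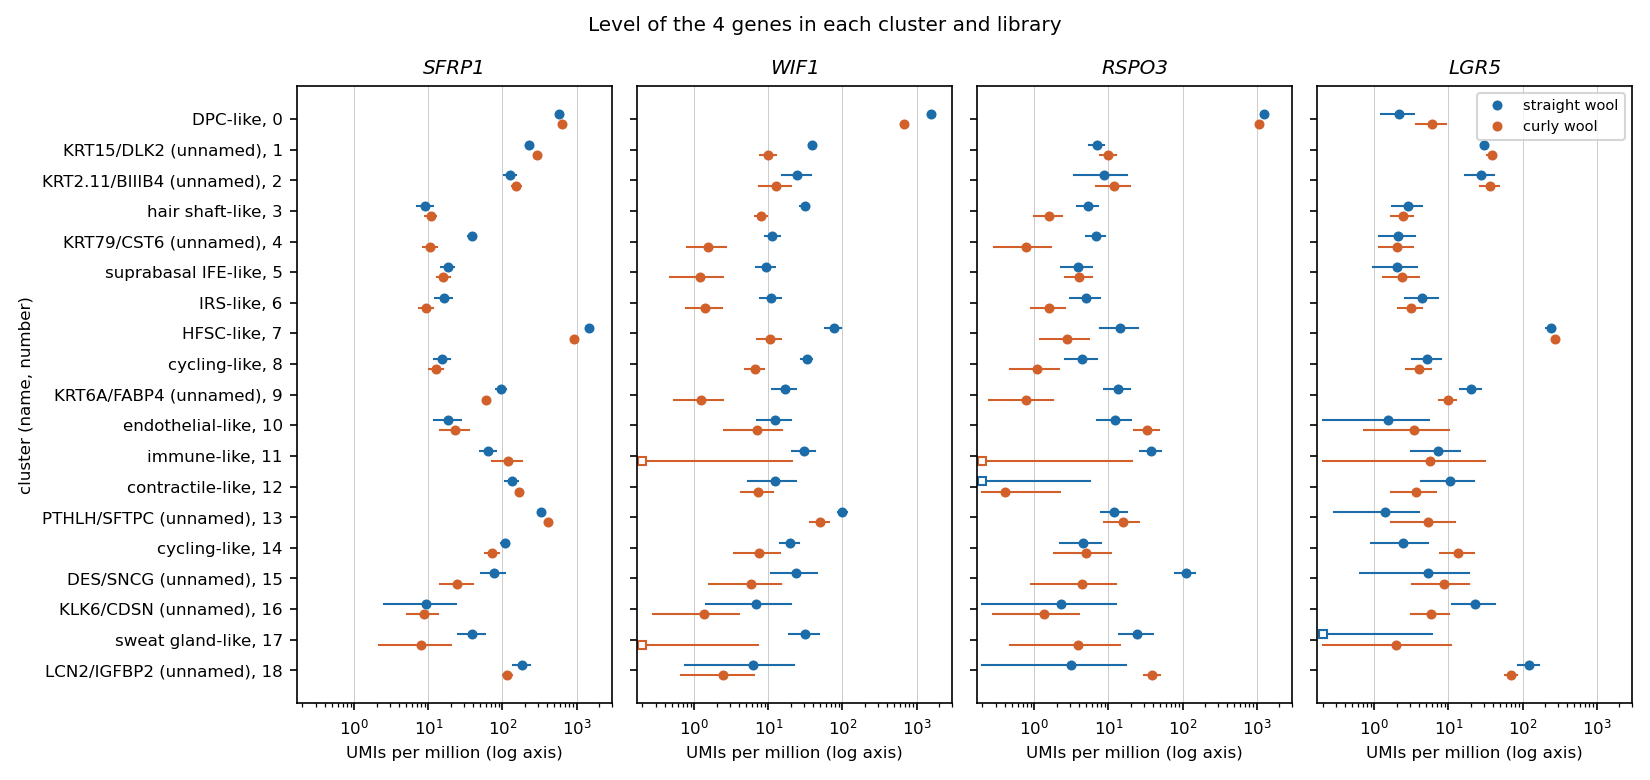
Level of each gene (CPM, log axis) in the 19 clusters with at least 25 cells in both libraries, blue for straight and orange for curly wool, with 95% Poisson intervals as lines and open squares at the left edge for a level of 0. WIF1 and RSPO3 peak in the DPC-like cluster, SFRP1 and LGR5 in the HFSC-like cluster, and the orange WIF1 point lies left of the blue one in every row.

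SFRP1 was highest in HFSC-like cells, with the DPC-like cells next. In HFSC-like cells it stood at 1459.6 (interval 1382 to 1541) in straight and 918 CPM (883 to 954) in curly wool skin. In DPC-like cells the levels were 571 CPM (554 to 588) and 641 CPM (614 to 669.9). A cluster rich in PTHLH and SFTPC followed at 333 and 410.4 CPM, and an unnamed cluster rich in KRT15 and POSTN at 225 and 289 CPM. In the finer clustering described next, one dermal papilla-like group of the curly library stood above its HFSC-like cells. In both libraries the intervals of these 4 neighbours in the order did not overlap, whereas in straight cells the fourth overlapped the fifth, a small cluster rich in LCN2 and KRT19 at 183 CPM. Endothelial-like cells, used as a comparison group, held SFRP1 at 18.4 and 23.1 CPM. Whether they lack any of these genes was not tested. DPC-like cells contributed 44.4% of all SFRP1 UMIs in the straight and 23.0% in the curly library, and HFSC-like cells 12.8% and 30.1%.

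Across all DPC-like cells the SFRP1 difference was small, with a log2 of curly over straight of 0.17 (0.09 to 0.24). Without integration, where only 27 curly cells were named DPC-like, it was -0.56. The finer clustering divided these cells into a group rich in FGF7, a growth factor that papilla cells send to the epithelium, a group poor in FGF7, and 240 fibroblast-like cells rich in the matrix protein LUM, with 10 cells elsewhere. The FGF7-rich group counted 695 straight and 289 curly cells with FGF7 at 1005 and 631 CPM, and the FGF7-poor group 439 and 324 cells with FGF7 at 102 and 18.3 CPM. In FGF7-rich cells SFRP1 was at 601 (581 to 621) in straight and 347 CPM (319 to 377) in curly skin, a log2 difference of -0.79 (-0.92 to -0.66). In FGF7-poor cells it was at 585 (551 to 621) in straight and 1103 CPM (1046 to 1161) in curly skin, a log2 difference of 0.91 (0.80 to 1.03). In straight skin the intervals of the groups overlapped. In curly skin the FGF7-poor cells stood far above the FGF7-rich ones, and also above the HFSC-like cells of the finer clustering at 918.5 CPM (884 to 954). The sign in FGF7-poor cells depends on how cells were grouped. Without integration, the one finer cluster named DPC-like with both libraries, 569 straight and 53 curly cells with FGF7 at 113 and 157 CPM, had SFRP1 at 515 and 258 CPM, a log2 difference of -0.996 (-1.41 to -0.61). With a higher minimum of genes per cell, the DPC-like group with less FGF7 still held it at 458 and 99.6 CPM, with LUM among its leading genes. The SFRP1 value of that group was 0.39 (0.25 to 0.53), and that of the FGF7-rich group -0.58 (-0.78 to -0.39). Whether the direction itself differs between the groups could not be tested with 1 library each.

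The spread over single cells showed the same direction between the libraries in each group. In straight skin, however, single FGF7-rich cells stood above FGF7-poor ones, where the intervals of the summed levels overlapped. The median FGF7-rich cell held 4.93 SFRP1 UMIs per 10000 in straight and 2.54 in curly skin, and the median FGF7-poor cell 2.08 and 8.31. After each cell was thinned to 2000 UMIs, SFRP1 was found in 62.1% (58.4 to 65.8) of the straight and 45.2% (39.3 to 51.2) of the curly FGF7-rich cells. Among FGF7-poor cells it was seen in 44.2% (39.3 to 49.2) and 71.8% (66.2 to 77.0). Before thinning the shares were 90.6% and 69.2% in FGF7-rich cells, at median depths of 7778 and 5338 UMIs, and 53.1% and 81.5% in FGF7-poor cells, at 3870.0 and 4060.5 UMIs. The share of endothelial-like cells with an SFRP1 UMI was 6.77% and 4.82% before thinning, at 5306 and 3827 UMIs, and 2.29% and 3.51% after it. Dividing the DPC-like cluster simply by the presence of an FGF7 UMI, a choice made after the data were seen, gave log2 differences of -0.85 (-0.99 to -0.72) in 687 straight and 256 curly cells with FGF7. In the 598 straight and 456 curly cells without it the difference was 0.97 (0.86 to 1.09). Markers of other cells differed too. The summed level of 5 HFSC-like markers in FGF7-poor cells was 2693 in straight and 4093 CPM in curly skin, with 3 of 5 higher in curly and none at 0. The summed level of 6 fibroblast-like markers there was 2125 and 1459 CPM, with 2 of 6 higher in curly and none at 0. In FGF7-rich cells it was 1606 and 1081 CPM, with 3 of 6 higher in curly. Epithelial markers were higher in curly FGF7-rich cells, with sums of 961 and 1990.1 CPM for basal epidermis (IFE-like, 4 of 5 higher), 329 and 612 CPM for suprabasal epidermis (6 of 6), 177 and 511 CPM for the inner root sheath (IRS-like, 4 of 4) and 321 and 635 CPM for HFSC-like markers (3 of 5). In FGF7-poor cells the IRS-like sum was 248 and 728 CPM, with 4 of 4 higher in curly. Their part in the SFRP1 result was not tested.

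**Figure D2:**
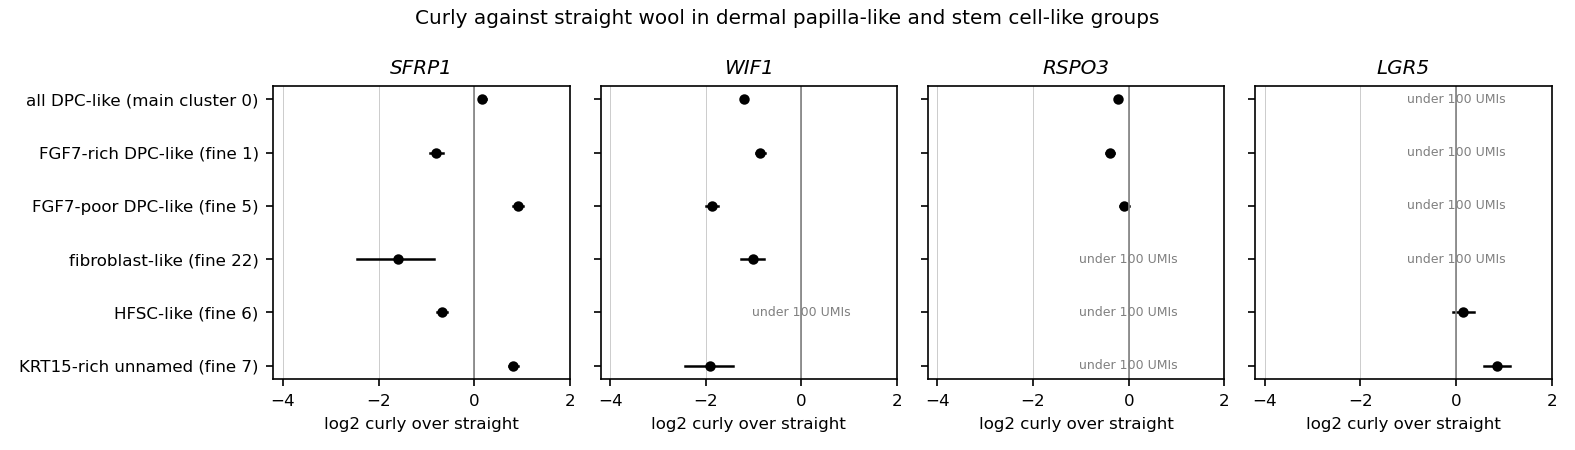
Log2 of the curly over the straight level of each gene in 6 cell groups, with points for the value and lines for the 95% counting interval, and no point where a gene had under 100 UMIs in the group. SFRP1 lies at -0.79 in FGF7-rich and 0.91 in FGF7-poor DPC-like cells, whereas WIF1 lies below 0 in each of the 5 groups that have a point.

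Cells with KRT15 showed a similar division. In HFSC-like cells SFRP1 had a log2 of curly over straight of -0.67 (-0.76 to -0.57). By trimmed means (TMM), a normalization that centres the bulk of genes, all genes together lay at -0.36 in these cells, and relative to that SFRP1 was at -0.31 (-0.41 to -0.22). The finer clustering placed beside them a second group of 497 straight and 250 curly KRT15-rich cells, which came almost wholly from the unnamed cluster rich in KRT15 and POSTN and missed the HFSC-like name with a score of 1.39. In these SFRP1 was at 516 (494 to 539) in straight and 911 CPM (868 to 955) in curly skin, a log2 difference of 0.82 (0.72 to 0.91), with all genes by TMM at -0.20. When both KRT15-rich groups were summed, the SFRP1 difference was 0.40 and so took the opposite sign to HFSC-like cells alone. With a higher minimum of genes per cell, which changed the cells in the class, the HFSC-like value was 0.43. The 5 HFSC-like markers summed in HFSC-like cells to 21691 CPM with straight and 11772 CPM with curly wool, with 2 of 5 higher in curly, and to 12283 and 11307 CPM in the second group. Median depth of the HFSC-like cells was 3010.0 UMIs in straight and 5531 in curly skin. The part of these values in the result was not tested.

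**Figure D3:**
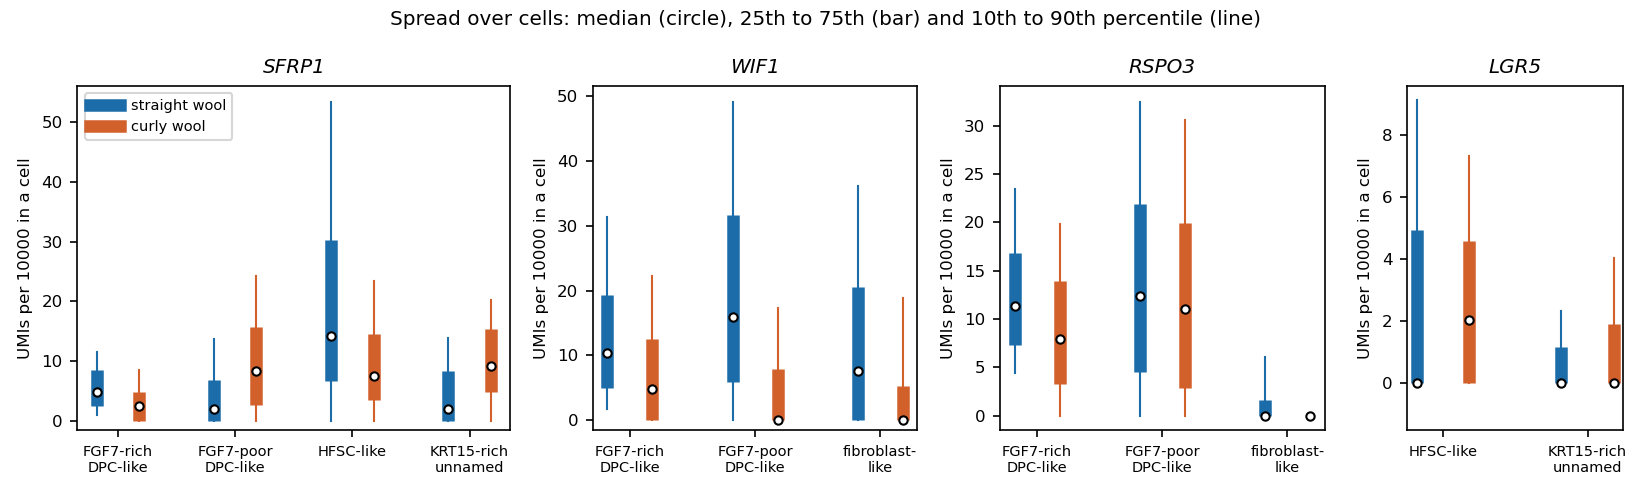
UMIs per 10000 in single cells of the finer clustering, with a circle for the median, a bar from the 25th to the 75th and a line from the 10th to the 90th percentile, blue for straight and orange for curly wool. The SFRP1 median is lower in curly FGF7-rich and HFSC-like cells and higher in curly FGF7-poor and KRT15-rich cells, and the WIF1 median of FGF7-poor cells is 15.9 in straight and 0 in curly skin.

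WIF1 was found mainly in DPC-like cells, and its level was lower in curly wool skin in each of the 19 clusters compared. In DPC-like cells it stood at 1571 (1543 to 1598) in straight and 683 CPM (654 to 712) in curly skin, a log2 difference of -1.20 (-1.27 to -1.14). This is past a 2-fold difference, as were 7.92% of the 6997 genes with at least 100 UMIs in these cells. DPC-like cells held 90.004% of all WIF1 UMIs in the straight and 84.1% in the curly library. Their share of cells was 19.9% in straight and 9.39% in curly skin, and their share of all UMIs 13.8% and 4.07%, so that the difference over whole libraries holds both fewer DPC-like UMIs and a lower level within them. The next cluster in the order, rich in PTHLH and SFTPC, was far lower, at 99.98 (87.1 to 114) in straight and 49.1 CPM (36.1 to 65.3) in curly skin. In straight skin its interval overlapped that of the HFSC-like cells at 75.8 CPM. In 12 of the 19 clusters the counting interval of the log2 difference lay wholly below 0. Endothelial-like cells, the comparison group, held 12.3 and 6.94 CPM. The level in such cells thus also differed in this direction, with an interval that includes 0, and the part of free RNA in the low levels was not tested.

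Within the DPC-like cells, as divided after integration, the WIF1 difference was larger in the FGF7-poor group. It was at 2040.01 (1976 to 2106) in straight and 558 CPM (518 to 600.1) in curly FGF7-poor cells, a log2 difference of -1.87 (-1.99 to -1.76). In FGF7-rich cells it was at 1407 CPM (1376 to 1438) and 776 CPM (734 to 820.3), a log2 difference of -0.86 (-0.95 to -0.77). Past 2-fold in either direction were 5.47% of the genes with at least 100 UMIs in FGF7-poor cells and 10.7% in FGF7-rich cells. The groups also stood in opposite order, with WIF1 higher in FGF7-poor than in FGF7-rich cells in straight skin and lower in curly skin, by intervals that did not overlap in either library. With a higher minimum of genes per cell the log2 difference was -1.62 in the group with less FGF7 and -0.89 in FGF7-rich cells. Without integration, the one finer DPC-like cluster with both libraries had WIF1 at 1948 and 1065 CPM, a log2 difference of -0.87 (-1.07 to -0.68). That cluster held 569 straight and 53 curly cells with FGF7 at 113 and 157 CPM, and its difference was close to that of FGF7-rich cells. After thinning, WIF1 was found in 84.9% (81.1 to 88.3) of the straight and 41.2% (35.4 to 47.2) of the curly FGF7-poor cells, against 4.58% and 0.877% of endothelial-like cells. The highest single cells held 84 WIF1 UMIs in the straight and 45 in the curly library.

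WIF1 was also found in cells with little RSPO3. Fibroblast-like cells, 150 straight and 90 curly, carried WIF1 at 1636 CPM (1531 to 1746) and 808 CPM (693 to 936), but RSPO3 at only 159.6 and 36.7 CPM. One curly fibroblast-like cell held 45 of the 176 WIF1 UMIs there. Found without integration, the finer fibroblast-like cluster held 40 straight and 64 curly cells, with WIF1 at 0 and 170 CPM. The makeup of the 150 straight and 90 curly cells also differed, with 6 fibroblast-like markers summing to 9812 and 25149.9 CPM (5 of 6 higher in curly, none at 0). The 5 matrix-like markers summed to 2602 and 8542 CPM (3 of 5 higher, SHH at 0). They include DCN, which the paper also lists as a papilla signature gene. The 7 DPC-like markers summed to 17099 and 15423 CPM there (4 of 7 higher, none at 0), beside 16617 and 15301 CPM in FGF7-poor DPC-like cells. The part of these markers in the WIF1 difference was not tested. The number of WIF1 UMIs per RSPO3 UMI was 10.25 in straight and 22 in curly fibroblast-like cells, against 1.26 and 0.640 in all DPC-like cells. Matrix-like cells, the dividing epithelial cells that build the fibre, formed a named group only in the finer clustering, with 202 straight and 416 curly cells. Their WIF1 was at 69.8 (60.1 to 80.5) in straight and 15.0 CPM (12.2 to 18.2) in curly skin, with 31.3 and 7.77 WIF1 UMIs per RSPO3 UMI. The KRT15-rich second group had 25.3 WIF1 UMIs per RSPO3 UMI in straight and 2.29 in curly skin. Endothelial-like cells had equal numbers in straight skin, 16 of each, and 6 WIF1 beside 29 RSPO3 UMIs in curly skin, most of the latter in 1 cell. The ratios of the fibroblast-like, matrix-like and second KRT15-rich cells were above that of the DPC-like cells in both libraries. They rest on few RSPO3 UMIs, 88 and 8, 6 and 13, and 12 and 17 in that order. Ratios above that of DPC-like cells in both libraries were found in many other epithelial clusters too. Among them were HFSC-like cells (5.23 and 3.75), the PTHLH and SFTPC-rich cluster (8.31 and 3.13), the larger cycling-like cluster (7.5 and 6) and hair shaft-like cells (5.76 and 5). This did not hold in endothelial-like cells, in suprabasal epidermis of curly skin (0.292) or in the KRT6A-rich cluster of straight skin (1.24). After thinning, 11.7% (7.41 to 17.4) of straight and 2.44% (1.18 to 4.44) of curly matrix-like cells had a WIF1 UMI, with intervals that overlapped those of endothelial-like cells.

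**Figure D4:**
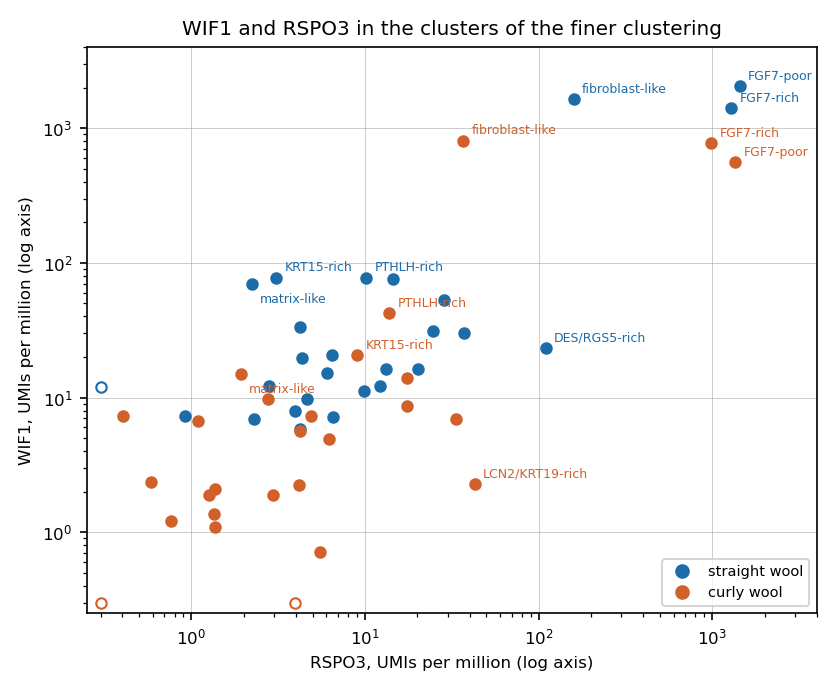
WIF1 against RSPO3 (CPM, both axes log) in the clusters of the finer clustering with at least 25 cells in both libraries, blue for straight and orange for curly wool, with open circles where a gene had no UMI. DPC-like groups lie at the top right, fibroblast-like cells at 1636 CPM of WIF1 but 159.6 CPM of RSPO3 in straight skin, and matrix-like cells at the left.

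RSPO3 was the most restricted of the 4 genes, and its level in DPC-like cells differed little with wool type. DPC-like cells held 96.0% of its UMIs in the straight and 92.0% in the curly library, at 1246 CPM (1222 to 1271) and 1066 CPM (1031 to 1103). The log2 of curly over straight was -0.23 (-0.28 to -0.17), well inside 2-fold. Without integration it was -0.99, but only 27 curly cells beside 1243 straight ones were then named DPC-like. The unnamed cluster that took 95.9% of the curly DPC-like cells had RSPO3 at 1091 CPM in curly skin. FGF7-rich cells had 1288 CPM (1259 to 1319) and 984.5 CPM (937 to 1034), and FGF7-poor cells 1443 CPM (1389 to 1499) and 1355 CPM (1293 to 1419.8). FGF7-poor cells were higher in both libraries, with a log2 difference of -0.09 beside -0.39 in FGF7-rich cells, but this order depends on the grouping. With a higher minimum of genes per cell RSPO3 was at 1348 and 1308 CPM in FGF7-rich cells. The group with less FGF7, which still held it at 458 and 99.6 CPM, had RSPO3 at 1061 and 1077 CPM. In the finer DPC-like cluster found without integration RSPO3 was at 1179 and 115 CPM, a log2 difference of -3.35 (-3.98 to -2.79). That cluster held 569 straight and only 53 curly cells. Divided by an FGF7 UMI, straight DPC-like cells without it had 1102 CPM and those with it 1314 CPM. RSPO3 was found in 78.9% of the straight and 68.0% of the curly DPC-like cells after thinning, and in 86.1% and 72.5% before it.

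Outside the papilla RSPO3 rested on few cells. In straight skin the next cluster was the one rich in DES, a muscle filament gene, at 110.1 CPM, but its 42 UMIs lay in 3 cells and 1 of these held 28. Endothelial-like cells had 12.3 with straight and 33.6 CPM with curly wool, and 1 cell held 21 of the 29 curly UMIs. The cluster rich in LCN2 and KRT19 was different. Among its 108 curly cells 23 had an RSPO3 UMI, 63 UMIs in all with at most 11 in a cell, at 38.7 CPM (29.8 to 49.6), while its 29 straight cells held 1 UMI. The log2 difference was 3.64 with a wide interval from 1.11 to 8.97. WIF1 was at only 2.46 CPM in these curly cells, so there were 0.0635 WIF1 UMIs per RSPO3 UMI against 0.640 in curly DPC-like cells. After thinning, 5.88% (2.19 to 12.4) of these curly cells kept an RSPO3 UMI, and the interval overlapped that of curly endothelial-like cells at 1.75% (0.213 to 6.19).

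LGR5 was highest in HFSC-like cells. Its level there was 241 CPM (210 to 275) with straight and 273 CPM (254 to 292) with curly wool, and the log2 difference of 0.18 (-0.04 to 0.40) had an interval that includes 0. Relative to the TMM shift of these cells it was 0.54 (0.32 to 0.76), with a higher minimum of genes per cell 1.29, and with the second KRT15-rich group added 1.11. The cluster rich in LCN2 and KRT19 came next at 121 CPM (86.1 to 165) and 70.1 CPM (57.8 to 84.2), then the unnamed cluster rich in KRT15 and POSTN at 30.5 and 38.3 CPM. That last level overlapped its neighbour in the order in both libraries, a cluster of low depth. DPC-like cells held 2.13 and 6.01 CPM. HFSC-like cells held 28.3% of all LGR5 UMIs in the straight and 54.0% in the curly library, and the cluster rich in KRT15 and POSTN 40.7% and 16.8%.

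The share of HFSC-like cells with LGR5 differed as counted and not visibly after thinning. It was 48.6% in straight and 67.5% in curly cells as counted, at median depths of 3010.0 and 5531 UMIs, but 36.6% (28.4 to 45.3) and 37.6% (33.1 to 42.1) after thinning, which left out 80 straight and 60 curly cells. In endothelial-like cells 1.04% and 1.2% had an LGR5 UMI as counted. In the second KRT15-rich group, at nearly equal depths of 7168 and 7281 UMIs, LGR5 was at 64.0 (56.3 to 72.4) in straight and 116 CPM (101 to 132) in curly cells. The log2 difference was 0.86 (0.59 to 1.12), and the thinned shares were 11.3% (8.60 to 14.6) and 20.1% (15.1 to 25.8). Both LGR5 and SFRP1 were higher in curly skin in these cells. Of the 4 genes, SFRP1 and LGR5 had at least 100 UMIs in HFSC-like cells, where 5.44% of 3605 genes with that number lay past 2-fold and neither gene did.

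Joint detection was read in cells thinned to 2000 UMIs. Of 946 straight DPC-like cells with WIF1, 760 also had RSPO3 (80.3%, against 73.5% of cells without WIF1). In curly skin 188 of 306 did (61.4%, against 74.5% of cells without WIF1). These pooled shares cover groups that differ. Among FGF7-poor cells RSPO3 was seen in 84.6% of straight cells with WIF1 and 63.9% of those without, and in curly skin in 64.1% and 85.6%. Among FGF7-rich cells the shares were 86.8% and 85.9% in straight and 66.9% and 73.0% in curly skin. For SFRP1, 86.5% of straight and 76.8% of curly DPC-like cells with it had RSPO3, against 70.4% and 57.0% of those without. Among FGF7-rich cells the shares with and without SFRP1 were closer, at 88.2% and 83.8% in straight and 70.9% and 68.2% in curly skin. Among FGF7-poor cells they were 89.4% and 75.2% in straight and 83.3% and 60% in curly skin. Of HFSC-like cells with LGR5, 89.8% in straight and 71.4% in curly skin had SFRP1, against 75.3% and 77.0% of those without LGR5. In the second KRT15-rich group the shares were 49.1% and 40% in straight and 89.4% and 69.0% in curly skin. These are counts of cells within 1 library, and cells are not replicates.

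Over the 39 combinations of cluster and library with at least 25 cells, the log2 levels of WIF1 and RSPO3 had a Pearson correlation of 0.77. That of SFRP1 with WIF1 was 0.58, with LGR5 0.55 and with RSPO3 0.46, while LGR5 was near 0 with WIF1 (0.016) and with RSPO3 (-0.0066). The points share 2 libraries and most clusters appear once in each, so these values describe the order of clusters only. Among 10287 genes with a symbol (locus identifiers left out) and at least 100 UMIs in each library, the pattern most like SFRP1 was that of COL5A2, a fibrillar collagen chain (0.85), followed by CRISPLD1 (0.84) and MFAP2, a microfibril protein (0.84). Most like WIF1 were UXS1 (0.87), HHIP, a secreted inhibitor of hedgehog signal (0.84), and SPON2 (0.81). Most like RSPO3 were ENPEP, a cell surface peptidase (0.88), HHIP (0.87) and LAMA2, a laminin chain (0.86). Most like LGR5 were BNC2, a zinc finger protein (0.76), ID4, an inhibitor of DNA binding (0.75), and ST6GAL1, a sialyltransferase (0.73). HHIP stood in DPC-like cells at 252 CPM with straight and 141 CPM with curly wool and at 1.11 and 0.692 CPM in HFSC-like cells.

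Other secreted WNT modulators and receptors were read from a list of 26 genes, of which 23 were in the table. In DPC-like cells 12 of the 23 had at least 100 UMIs. Past 2-fold in curly skin were 2 in the higher and 2 in the lower direction, beside 7.92% of all genes (194 higher and 360.0 lower), and the median log2 difference was -0.51 beside -0.07 over all 6997 genes. The 2 other R-spondins with at least 100 UMIs went opposite ways, while RSPO4 had 7 straight and 0 curly UMIs. RSPO2 was at 46.5 in straight and 7.28 CPM in curly cells (log2 -2.68, -3.35 to -2.07). RSPO1 was at 38.8 and 77.5 CPM (log2 1.0003, 0.75 to 1.25) and so lay at the 2-fold limit. RSPO2 lay almost wholly in FGF7-rich cells, with 370 of 371 straight UMIs there. RSPO1 was higher in curly skin in FGF7-rich (0.75) and in FGF7-poor cells (0.67). SOSTDC1, a secreted inhibitor of WNT and BMP signal, was at 429 and 162 CPM (-1.41, -1.54 to -1.27), and SFRP2, a relative of SFRP1, at 83.6 and 42.7 CPM (-0.97, -1.25 to -0.70). DKK3, which belongs to the Dickkopf family, was at 20.3 and 55.1 CPM (1.44, 1.12 to 1.76). The receptor LGR4, which also binds R-spondins, was present in the papilla where LGR5 was scarce, at 47.3 and 37.3 CPM (-0.34, -0.65 to -0.04). WIF1 was lower in curly skin in both DPC-like groups. So were SOSTDC1, SFRP2 (-0.45 in FGF7-rich and -1.99 in FGF7-poor cells) and SDC4 (-0.66 and -0.48) of the list.

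**Figure D5:**
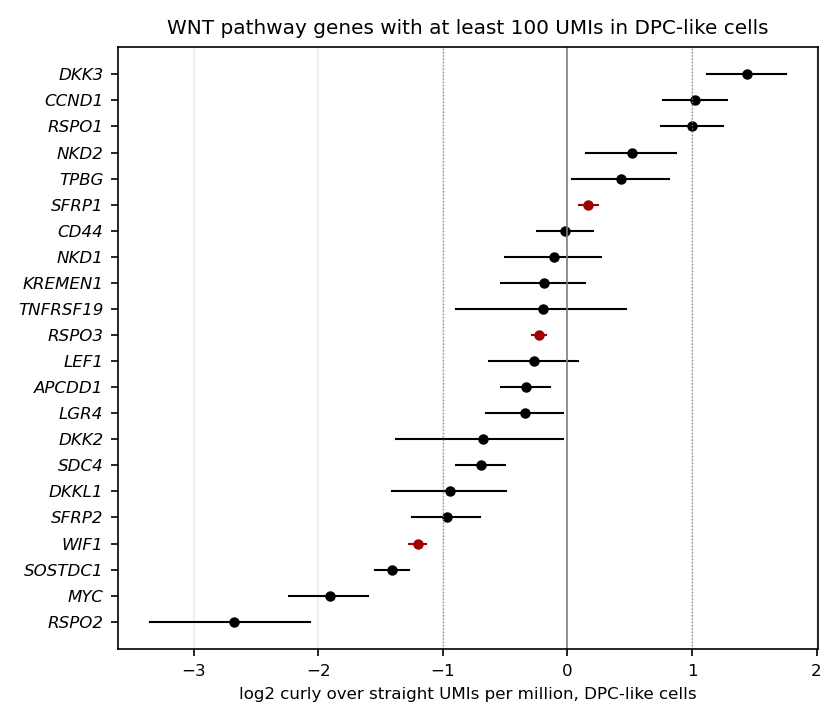
Log2 of the curly over the straight level in DPC-like cells for the genes of both WNT lists and the 4 genes (red) with at least 100 UMIs there, with 95% counting intervals and dotted lines at a 2-fold difference. RSPO2 lies lowest at -2.68 and DKK3 highest at 1.44, with WIF1 at -1.20, RSPO3 at -0.23 and SFRP1 at 0.17.

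In the FGF7-rich group 11 of the 23 modulators had at least 100 UMIs, 1 of them past 2-fold higher and 2 lower in curly skin beside 10.7% of all genes, with a median of -0.45 beside -0.11. In the FGF7-poor group 8 had them, with 0 higher and 2 lower beside 5.47% of all genes and a median of -0.47 beside -0.08. In HFSC-like cells 4 had them and 0 lay past 2-fold beside 5.44% of all genes, with a median of -0.13 beside -0.20. There SOSTDC1 was at 352 and 338 CPM and DKK3 at 55.7 and 81.7 CPM.

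Genes known to respond to WNT signal formed a second list of 17, with 16 in the table. In DPC-like cells 8 had at least 100 UMIs, 1 of them past 2-fold higher and 1 lower in curly skin beside 7.92% of all genes, with a median of -0.15 beside -0.07. CCND1, a cyclin, was at 36.2 in straight and 73.7 CPM in curly cells (1.02, 0.77 to 1.28), and MYC, a growth regulator, at 112 and 29.7 CPM (-1.91, -2.23 to -1.60). LEF1, a transcription factor of the pathway, was at 33.9 and 28.2 CPM (-0.27, -0.63 to 0.08), and NKD1, an inhibitor induced by the pathway, at 26.6 and 24.7 CPM (-0.11, -0.50 to 0.27). AXIN2, another feedback gene, had only 62 and 17 UMIs there. In FGF7-rich cells LEF1 was at 29.5 and 13.6 CPM (-1.11) and in FGF7-poor cells at 46.6 and 47.3 CPM (0.02). In HFSC-like cells 2 of the list had at least 100 UMIs, namely CCND1 at 128 and 102 CPM and CD44 at 114 and 94.8 CPM, and neither lay past 2-fold, beside 5.44% of all genes. In FGF7-rich cells 7 of the list had at least 100 UMIs, 1 of them past 2-fold higher and 2 lower beside 10.7% of all genes, with a median of -0.02. In FGF7-poor cells 5 had them, with 0 past 2-fold beside 5.47% of all genes and a median of 0.02.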

How the data were processed

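Single-cell RNA-seq on the 10× Genomics platform was made from 1 pool of straight wool and 1 pool of curly wool lambskin. The submitters' processing notes name Cell Ranger 3.0.2 (the paper names another version). By the paper's methods the authors mapped reads against the sheep assembly Oar_rambouillet_v1.0 and filtered cells. The authors deposited 1 table of 18161 genes in 14037 cells, fewer cells than the paper gives. The deposited values are the natural log of 1 plus the UMIs after scaling each cell to 10000, whereas the plan had foreseen raw counts. UMIs were calculated back, and 100% of 28552149 values above 0 were whole within 0.01.

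Anchor integration of both libraries was run in Seurat 5.3.0 (R 4.3.3) (2000 variable genes without SFRP1, WIF1, RSPO3 and LGR5, 30 dimensions) and clustered at resolution 0.3, the lowest with at least 19 clusters. Resolution 0.8 gave the finer clustering. A cluster took the class with most fixed markers among its 10 leading genes, if the mean log2 ratio of its markers over other clusters (5 CPM added) reached 1.5 and no fewer than 3 markers were seen in 10% of cells or more. The data had been seen when these limits were chosen. Of 91 markers 83 were in the table, with KRT14 and KRT15 found through a RefSeq table of ARS-UI_Ramb_v3.0, from which no position was taken. No matrix-like class formed at resolution 0.3, so the gene lists were not read in one.

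UMIs were summed per group and library. Intervals are exact Poisson (levels), Clopper-Pearson (shares) and from the binomial split of both sums (log2 ratios), at 95%. As a floor for a gene at 0 UMIs 3 counts were taken, which over a whole library is 0.0518 (straight) or 0.0386 (curly) CPM. The exact Poisson upper limit at 0 UMIs, as drawn in the figure of levels, is higher. For WIF1 in curly cells of the larger immune-like cluster it is 20.8 CPM beside a floor of 16.9 CPM. Ratios are given from 100 UMIs on or with their interval. The genes and lists were chosen with earlier results of these data known. Named are the 4 genes, list members with at least 20 UMIs, the 3 genes per member with the highest Pearson correlation of log2(CPM + 1), and markers. Leading genes that identify a cluster were chosen after their values were seen. Scrublet (scanpy 1.11.5) called only 0.427% of cells doublets at its threshold, so as an alternative the highest 6% of scores per library (842 cells) were left out. Further alternatives were no integration, the 4 genes among the variable genes, the minimum of genes per cell named in the study's supplement, mean per-cell CPM, TMM, thinning, other UMI minimums and Spearman correlation. The calculations were tested on simulated data. Calculations ran in Python 3.11.15 with scipy 1.17.1, numpy 2.4.6 and pandas 2.3.3, and plots were drawn with matplotlib 3.10.9.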

Additional observations from a re-analysis of the deposited data

Results flagged for a closer look

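SFRP1 had counting intervals of the curly over straight log2 difference wholly below 0 in some groups of the finer clustering and wholly above 0 in others, among groups with at least 100 CPM in both libraries. It was lower in curly skin in FGF7-rich DPC-like cells (-0.79), in HFSC-like cells (-0.67), in the LCN2 and KRT19-rich cells (-0.81) and in IRS-like cells of low depth (-0.61). It was higher in curly skin in FGF7-poor DPC-like cells (0.91), in the second KRT15-rich group (0.82), in PTHLH-rich cells (0.29) and in contractile-like cells (0.34). The difference between these groups was not tested, since each wool type is 1 library. The FGF7-rich and FGF7-poor values were -0.77 and 0.96 without the cells of highest doublet score, -0.82 and 1.15 by mean per-cell CPM, and -0.85 and 0.97 when cells were divided by an FGF7 UMI. With the 4 genes among the variable genes they were -0.75 and 0.70, the poorer group holding FGF7 at 226 and 34.8 CPM. With a higher minimum of genes per cell they were -0.58 and 0.39, the poorer group holding FGF7 at 458 and 99.6 CPM. Without integration, 1 finer DPC-like cluster could be compared, with 53 curly cells and FGF7 at 113 and 157 CPM, and it gave -0.996, the opposite sign to 0.91.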

How the results depend on the processing

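No paired analysis was possible because each wool type is 1 pooled library. Of the alternatives planned for the log2 differences in DPC-like and HFSC-like cells, those not named here stayed within the counting interval, as did leaving out cells with shared barcodes. Without integration only 27 curly cells were named DPC-like, and WIF1 was at -1.10, RSPO3 at -0.99 and SFRP1 at -0.56 instead of 0.17, while no HFSC-like value could be given. By mean per-cell CPM, WIF1 was at -1.43, RSPO3 at -0.30 and SFRP1 at 0.32 in DPC-like cells, and SFRP1 at -0.98 in HFSC-like cells. With the minimum of genes per cell named in the study's supplement, RSPO3 was at -0.073 in DPC-like cells, and SFRP1 at 0.43 and LGR5 at 1.29 in HFSC-like cells, a class that then held 468 straight and 382 curly cells. TMM gave SFRP1 -0.31 and LGR5 0.54 in HFSC-like cells. Adding the second KRT15-rich group, chosen after the data were seen, gave SFRP1 0.40 and LGR5 1.11. In the one finer DPC-like cluster found without integration SFRP1 was at -0.996, beside 0.91 in FGF7-poor cells. The direction of SFRP1 in both classes and the size of the LGR5 difference thus depend on which cells are grouped. Without integration or with that minimum, the cluster with most SFRP1 in straight skin was DPC-like, at 575 and 639 CPM. Without integration LGR5 was highest, at 150 and 183 CPM, in the unnamed cluster that held 99.0% of the curly HFSC-like cells. That cluster also had most SFRP1 in curly skin, at 763 CPM. RSPO3 in curly skin was then highest, at 1091 CPM, in the unnamed cluster led by COL1A1. By contrast WIF1 in DPC-like cells stayed lower in curly skin under each alternative. With a minimum of 20 UMIs, 12.9% of genes in DPC-like and 13.3% in HFSC-like cells lay past 2-fold, and with any UMI 19.02% and 23.1%. In the finer clusters they were 16.9% of FGF7-rich and 11.2% of FGF7-poor cells' genes with a minimum of 20 UMIs, and 22.9% and 20.03% with any. By Spearman correlation 1 of the 3 genes most like RSPO3 was shared. Depth limits LGR5 in DPC-like cells, where 17 straight and 19 curly UMIs were counted.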

Other observations

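Some other WNT modulators were high outside the papilla and the stem cell-like cells. Contractile-like cells, which carry smooth muscle genes, had the highest level of DKK1, an inhibitor that binds WNT co-receptors, at 195 CPM (163 to 232) in straight and 112 CPM (99.6 to 126) in curly skin. They also held SFRP5 at 77.3 CPM (57.5 to 102) and 14.5 CPM (10.2 to 20.1), and FRZB, another SFRP relative, at 3.03 CPM (0.367 to 10.9) and 33.9 CPM (27.0 to 41.9). The cluster rich in LCN2 and KRT19, where LGR5 came second, held SFRP5 at 102 CPM (70.5 to 144) and 81.2 CPM (67.9 to 96.3). SOSTDC1 stood at 435.0 and 232 CPM in the KRT6A-rich cluster, below FGF7-rich DPC-like cells at 581 and 297 CPM and, in curly skin, below HFSC-like cells at 338 CPM. In hair shaft-like cells LEF1 was at 108 CPM (100.1 to 116) and 102 CPM (97.0 to 107) and NOTUM, an enzyme that inactivates WNT ligands, at 17.7 CPM (14.8 to 21.1) and 18.5 CPM (16.4 to 20.9), with levels that overlapped between the libraries.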
